A study of Homo sapiens with 19 samples.

Results

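miR-4485-3p and miR-12136 are 2 entries of the human miRNA catalogue whose letters are also found in transcripts of the mitochondrial genome. They were selected on their count levels, as hsa-miR-4485-3p and hsa-miR-12136, from the 1043 miRNAs listed in small RNA libraries of Caco-2 cells, an established wild-type human colorectal epithelial line, and of the medium of these cells. Since their TMM-scaled counts across the groups were in view when they were chosen, those levels and the fold changes made from them are given as a description, with no test.

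Cells at 80% confluence were kept for 24 h in medium free of serum and antibiotics in every group. The groups, each wild type with no agent named, were S100 (the supernatant left after the 100000 xg spin, nucleic acid precipitated and then taken up in Trizol, 3 libraries used), P100 (the pellet of the 100000 xg spin, Trizol, 4 libraries), P40 (the pellet of the 40000 xg spin, Trizol, 4 libraries), total extracellular RNA or total exRNA (medium RNA precipitated and then taken up in Trizol, 4 libraries) and the cell lysate (Trizol, 3 libraries). Fraction and RNA preparation therefore cannot be told apart where S100 or total exRNA is set against a pellet or the lysate. The pellets are crude spins with no further purification named, and no label says that the replicates came from separate cultures, so every SD covers only the spread between these libraries.

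Mitochondrial DNA is transcribed from both strands as long precursors, and the tRNAs lie between the other genes and are cut out at their ends by RNase P and ELAC2. The 16S rRNA, MT-RNR2, forms the core of the large subunit of the mitochondrial ribosome, and MT-TS1 is the mitochondrial serine tRNA that reads UCN codons. Copies of mitochondrial DNA are also found in the nuclear chromosomes, where they can be annotated as pseudogenes or as genes of their own, such as the humanin-like MTRNR2L genes. Canonical miRNAs, in contrast, are cut from nuclear hairpins by Drosha and Dicer.

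The mature sequences, from RefSeq (GRCh38.p14), are shown because they were used to search annotated transcripts for possible sources of the counts. Capitals mark the seed, bases 2 to 8.
miR-4485-3p: uAACGGCCgcgguacccuaa
miR-12136: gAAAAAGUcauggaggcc
miR-4485-3p is 20 bases long and miR-12136 is 18 bases long. Neither seed was shared with another of the 2370 mature miRNAs in the RefSeq table.

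Both sequences matched a mitochondrial transcript of the GENCODE v29 annotation (GRCh38) over their full length with 0 mismatches. The stretch of MT-RNR2 at chrM:2563-2600 (plus strand) and the whole of MT-TS1 at chrM:7446-7514 (minus strand) are printed as DNA letters, with the miRNA in capitals.
MT-RNR2 stretch with miR-4485-3p: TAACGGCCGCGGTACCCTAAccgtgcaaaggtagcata
MT-TS1 with miR-12136: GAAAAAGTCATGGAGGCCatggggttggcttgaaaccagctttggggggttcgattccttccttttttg
miR-4485-3p corresponds to bases 893 to 912 of the 16S rRNA, which is 1559 bases long, and so lies inside it. miR-12136 corresponds to bases 1 to 18 of the tRNA, which is 69 bases long, and so starts at its 5′ end.

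Each also has a nuclear hairpin. MIR4485 lies at chr11:10508270-10508326 (minus strand), inside the single exon of the humanin-like gene MTRNR2L8 (chr11:10507887-10509189) and outside its coding sequence (chr11:10508155-10508226). Of the 57 bases of that hairpin, 53 equal MT-RNR2, and the substitutions counted from the 5′ end of the hairpin are T25C, G26A, C27T and T52C, with the hairpin's base first. None falls in the mature part, bases 31 to 50. MIR12136 lies at chr1:632615-632685 (minus strand), in an intron of the pseudogene AL669831.3. On one side the mitochondrial pseudogene MTCO1P12 (chr1:631074-632616, plus strand) overlaps it by 2 bases. On the other side lies the mitochondrial pseudogene MTCO2P12 (chr1:632757-633438). All 69 bases of MT-TS1 were found in that hairpin, whose other 2 bases lie outside the tRNA. Among all annotated transcripts, the miR-4485-3p sequence was found in 4 genes (MIR4485, MT-RNR2, MTRNR2L8 and MTRNR2L12 at chr3:96617188-96618236), and the miR-12136 sequence in MT-TS1 alone, since that annotation has no entry for MIR12136. The mature letters are the same in each source, so the counts cannot tell a mitochondrial transcript and a nuclear hairpin apart.

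**Figure D1:**
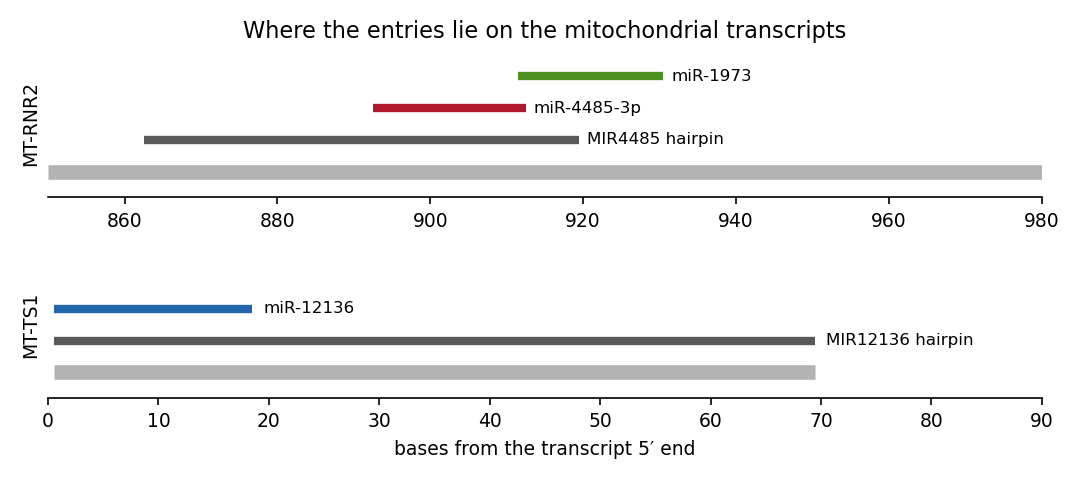
The entries drawn on the mitochondrial transcripts they match, MT-RNR2 above and MT-TS1 below (grey bars), with distance from the transcript's 5′ end in bases on the x axis. miR-4485-3p covers bases 893 to 912 of MT-RNR2, inside the region aligned with the MIR4485 hairpin, miR-1973 covers bases 912 to 930, and miR-12136 covers the first 18 bases of MT-TS1.

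The 18 libraries used held 10017 to 225290 counts each, with 10017 to 27027 in P100, 10490 to 26096 in P40 and 198878 to 225290 in S100, so 3 counts stand for 13.3 to 299 CPM, where CPM gives each library the same total. S100 replicate 1, with 48 counts in all, was left out. All 8 gut epithelial marker miRNAs were detected in every group. In rank correlation over the 227 miRNAs tested, each P40 library was as close to another group (0.801 to 0.846) as to the other P40 libraries (0.800 to 0.831). Total exRNA replicate 2 (0.837) and lysate replicate 1 (0.869) were the least like their own groups, in which the other libraries reached 0.904 to 0.915 and 0.905 to 0.919.

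miR-4485-3p was a major entry of both pellets and rare in the supernatant. It had 1, 3 and 9 counts in S100 replicates 2, 3 and 4. In the same order of replicates, from 1 to 4, it had 304, 336, 390 and 116 counts in P100, and 180, 241, 217 and 50 in P40. These P100 libraries hold far fewer counts in all than S100, yet each has more of miR-4485-3p than the 3 S100 libraries together (13 counts). Total exRNA had 223, 104, 222 and 89 counts, and the lysate had 72, 71 and 40 in replicates 1, 2 and 3.

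Scaled by TMM, the level of miR-4485-3p was 5.07, 12.3 and 46.6 CPM in S100. It was 17762, 14280, 16861 and 11620 CPM in P100. In P40 it was 11224, 12789, 7409 and 3904 CPM. The pellets overlap, since P40 replicate 2 lies above P100 replicate 4. Total exRNA had 5743, 1520, 4041 and 2440 CPM, and the lysate had 2481, 519 and 636 CPM. Lysate replicate 1 stands above both other lysate libraries and inside the range of total exRNA.

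As group means, miR-4485-3p had 21.3 ± 22.2 CPM in S100 (SD, n = 3), 15131 ± 2767 CPM in P100, 8832 ± 3987 CPM in P40 and 3436 ± 1858 CPM in total exRNA (SD, n = 4 each), and 1212 ± 1100 CPM in the lysate (SD, n = 3). The order was thus P100, P40, total exRNA, lysate and S100, and each neighbouring pair overlapped except lysate and S100. Among the 227 miRNAs tested it ranked 218 in S100, 13 in P100, 21 in P40, 48 in total exRNA and 87 in the lysate. It took 1.43 ± 0.215% of all counts in P100 (SD, n = 4) and 0.0994 ± 0.0808% in the lysate (SD, n = 3). These are shares of the miRNA counts of a library, not amounts, so more of one RNA and less of the others cannot be told apart.

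miR-12136 was also highest in P100, but was scarce in total exRNA. Its counts were 17, 12 and 15 in S100 replicates 2 to 4. P100 had 88, 93, 98 and 21 counts, and P40 had 6, 18, 68 and 22. Within P40, replicate 1 had the fewest and replicate 3 the most. Total exRNA had 2, 21, 7 and 2 counts, and the lysate had 11, 79 and 37.

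Its TMM-scaled level was 86.2, 49.3 and 77.6 CPM in S100. P100 had 5142, 3953, 4237 and 2104 CPM, and P40 had 374, 955, 2322 and 1718 CPM. The lowest P100 library lies just under the highest P40 library. Total exRNA had 51.5, 307, 127 and 54.8 CPM, and the lysate had 379, 577 and 589 CPM. Every lysate library lies above every total exRNA library, while P40 replicate 1 lies just under the lysate.

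miR-12136 averaged 71.0 ± 19.3 CPM in S100 (SD, n = 3), 3859 ± 1275 CPM in P100, 1342 ± 854 CPM in P40 and 135 ± 120 CPM in total exRNA (SD, n = 4 each), and 515 ± 118 CPM in the lysate (SD, n = 3). The order was P100, P40, lysate, total exRNA and S100. P100 and P40, P40 and lysate, and total exRNA and S100 overlapped, whereas lysate and total exRNA did not. It ranked 206 of 227 in S100, 40 in P100, 81 in P40, 194 in total exRNA and 121 in the lysate. In total exRNA replicates 1 and 4, with 2 counts each, the level was under the floor of 3 counts, so these values carry a large counting error.

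**Figure D2:**
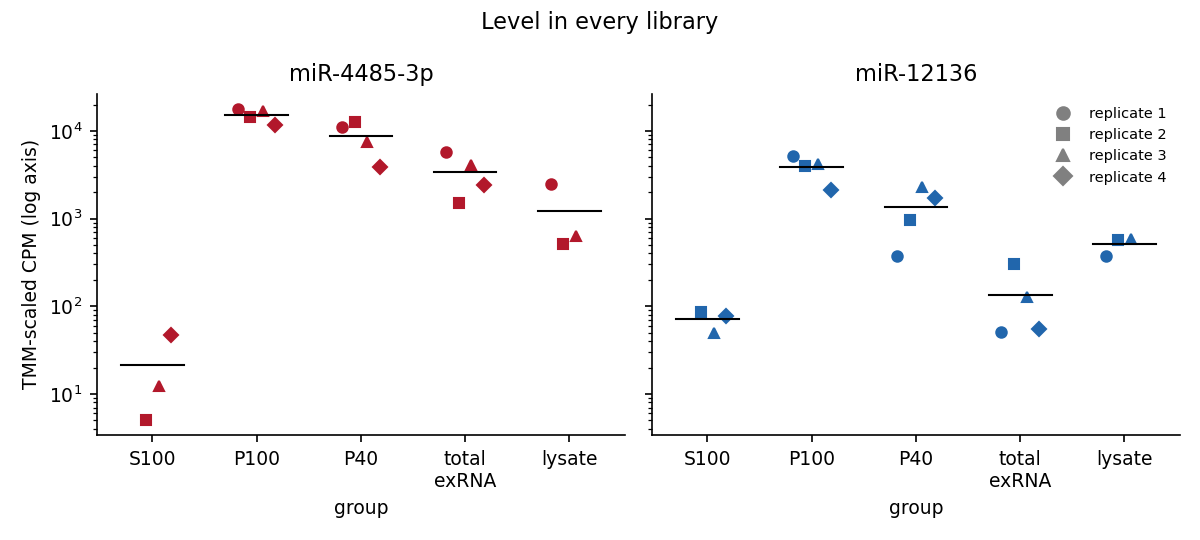
TMM-scaled CPM (log axis) of miR-4485-3p and miR-12136 in each library, by group, with the marker shape giving the replicate and the black line the group mean. Both are highest in P100, and for miR-12136 every total exRNA library lies below every lysate library.

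Set against the lysate, both were higher in P100. The P100 level of miR-4485-3p was 13.0 times that of the lysate. Its log2 fold change was 3.70 ± 0.63 (SE) in the edgeR fit over all 18 libraries. The SE of each fold was taken as its size divided by the square root of the edgeR F statistic, so it is approximate. Within the 3 shared batches the log2 CPM differences of miR-4485-3p were 2.83, 4.71 and 4.66. For miR-12136 the fold was 7.40 (log2 2.89 ± 0.58), with 3.66, 2.71 and 2.79 within batches. A batch here is a replicate number. Deviations from group means correlated by -0.030 on average between same-numbered libraries of other groups, and by 0.0099 between other numbers. Differences within batches, and counts of batches that are higher, are therefore a description only. P100 and lysate libraries did not overlap for either, as for 41.4% of all miRNAs tested. Without lysate replicate 1 the P100 difference of miR-4485-3p was 4.85.

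In P40 the libraries stood clear of the lysate for miR-4485-3p and overlapped it for miR-12136. miR-4485-3p was higher than in the lysate by 2.93 ± 0.61 (log2, SE) with no overlap, as for 26.0% of all tested, or by 4.00 without lysate replicate 1. miR-12136 differed by 1.37 ± 0.56 with overlapping libraries, and was higher in 2 of the 3 shared batches, at -0.02, 0.70 and 1.93.

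The signs of the 2 were opposite in total exRNA against lysate. miR-4485-3p was higher in total exRNA by 1.56 ± 0.57 (log2, SE), with overlapping libraries and differences of 1.20 to 2.61 within the 3 shared batches. miR-12136 differed by -1.83 ± 0.58, with no overlap, and was lower in each of the 3 shared batches. Groups did not overlap for 42.3% of all miRNAs in this comparison. Without lysate replicate 1 the difference of miR-4485-3p was 2.65, and without total exRNA replicate 2 that of miR-12136 was -2.71. Without both of these libraries, an alternative chosen after the data were seen, the differences were 2.80 for miR-4485-3p and -2.83 for miR-12136.

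Compared with total exRNA, the pellets held relatively more of both. In P100 the log2 difference was 2.14 ± 0.52 for miR-4485-3p and 4.72 ± 0.58 for miR-12136 (SE), with no overlap for either, as for 31.7% of all miRNAs tested. In P40 it was 1.37 ± 0.51 for miR-4485-3p, with overlap, and 3.21 ± 0.57 for miR-12136, with no overlap, as for 15.0% of all. Both were higher in each of the 4 batches. In P40 the difference was the larger for miR-12136 in batches 1, 3 and 4, while in batch 2 it was 3.05 for miR-4485-3p and 1.55 for miR-12136. Without total exRNA replicate 2 the differences of miR-12136 were 5.59 in P100 and 4.09 in P40.

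Between the pellets, P100 was above P40 by 0.78 ± 0.50 (log2, SE) for miR-4485-3p and by 1.51 ± 0.50 for miR-12136. Libraries overlapped for both, while 11.0% of all miRNAs showed no overlap. Within batches, P100 was higher in 4 of 4 for each, by 0.16 to 1.57 for miR-4485-3p and by 0.29 to 3.68 for miR-12136. Without P40 replicate 3 the difference of miR-12136 was 2.12.

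The supernatant held the least of both. Against P100, S100 was lower by a log2 difference of -9.38 ± 0.84 (SE) for miR-4485-3p and -5.74 ± 0.67 for miR-12136, with no overlap, as for 66.5% of all miRNAs tested. Against P40 the differences were -8.61 ± 0.82 and, for miR-12136, -4.23 ± 0.63, with no overlap, as for 52.9% of all. Against the lysate, miR-4485-3p differed by -5.68 ± 0.77 and miR-12136 by -2.85 ± 0.62, with no overlap, as for 66.5% of all. Against total exRNA, miR-4485-3p differed by -7.24 ± 0.78 with no overlap, as for 63.9% of all, and miR-12136 by -1.02 ± 0.60 with overlap, being higher in 1 of the 3 shared batches.

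The miR-4485-3p folds of S100 rest on 13 counts, and S100 replicates 2 and 3 were at or under the floor of 3. Leaving out S100 replicate 2 gave -8.73 against P100, -7.89 against P40, -6.54 against total exRNA and -4.89 against the lysate. Without S100 replicate 4 these were -10.2, -9.31, -7.98 and -6.32. Against the lysate the value was -5.07 without S100 replicate 3, -4.32 without lysate replicate 1 and -5.08 with the replicate number as a block. For miR-12136, S100 differed by -0.15 from total exRNA without total exRNA replicate 2, and by -3.34 from P40 without P40 replicate 3. Comparisons that share a group share its libraries, so these folds are not independent of one another.

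**Figure D3:**
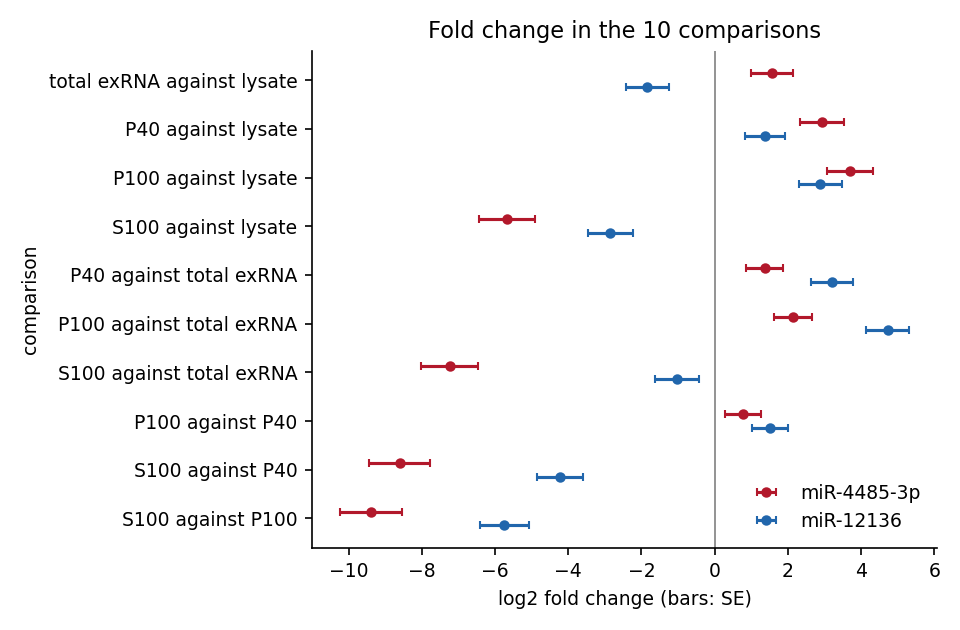
Log2 fold change (x axis) of miR-4485-3p and miR-12136 in the 10 comparisons (rows), each point the edgeR estimate and each bar its approximate SE. The 2 have the same sign in 9 comparisons and opposite signs in total exRNA against lysate, at 1.56 and -1.83.

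The ratio of the 2 counts within a library needs no scaling to other libraries. miR-4485-3p had 0.0588, 0.250 and 0.600 times the counts of miR-12136 in S100 replicates 2, 3 and 4. In P100 the ratio was 3.45, 3.61, 3.98 and 5.52. P100 was thus the group with the narrowest spread, and S100 the one in which miR-12136 exceeded miR-4485-3p in each library. P40 had ratios of 30.0, 13.4, 3.19 and 2.27, total exRNA had 112, 4.95, 31.7 and 44.5, and the lysate had 6.55, 0.899 and 1.08. On the log2 scale, with 0.5 added to each count, the ratio averaged -2.03 ± 1.43 in S100 (SD, n = 3), 2.01 ± 0.30 in P100, 2.83 ± 1.71 in P40 and 4.70 ± 1.76 in total exRNA (SD, n = 4 each), and 0.87 ± 1.55 in the lysate (SD, n = 3). S100 lies below every other group without overlap, while P100, P40 and total exRNA overlap among themselves. The largest ratios rest on few miR-12136 counts, 2 in total exRNA replicate 1 and 6 in P40 replicate 1.

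**Figure D4:**
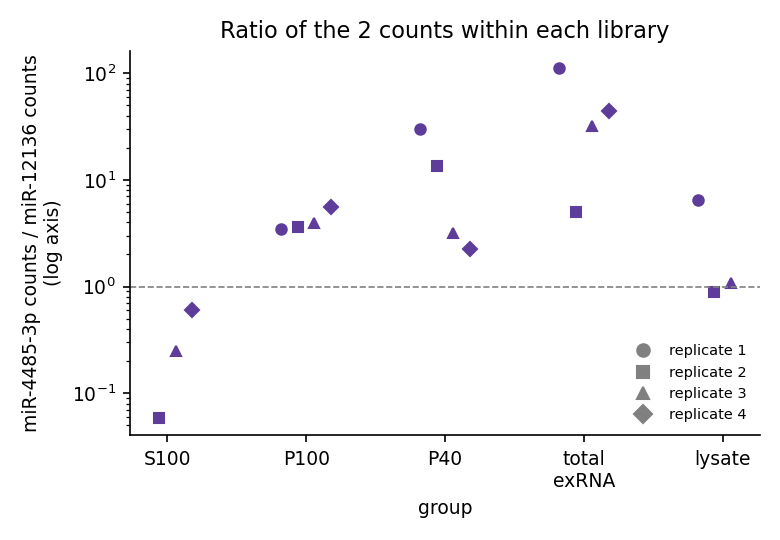
Counts of miR-4485-3p divided by counts of miR-12136 in each library (log axis), by group, with the marker shape giving the replicate and the dashed line at 1. The 3 S100 libraries lie at 0.0588 to 0.600, below the line, and the 4 P100 libraries lie together at 3.45 to 5.52.

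Of the 2370 mature sequences in the RefSeq table, which cover 933 of the 1043 listed names, 5 matched one of the 37 mitochondrial transcripts of the annotation, and allowing 1 mismatch added none. Beside the pair these were miR-1973, miR-4284 and miR-4463. miR-1973 adjoins miR-4485-3p in MT-RNR2, at bases 912 to 930 (chrM:2582-2600), and shares 1 base with it. miR-4284 lies at bases 49 to 66 of the phenylalanine tRNA MT-TF (chrM:625-642), and miR-4463 is antisense to bases 715 to 731 of MT-ND5 (chrM:13051-13067), a subunit of respiratory complex I.

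All 3 were rare and none passed the filter on low counts. miR-1973 had 0 counts in S100, 3, 2, 8 and 2 in P100, 5 in P40 (all in replicate 1), 0 in total exRNA and 2 in the lysate. It was listed in 4 of 4 P100 libraries, which together hold 78348 counts, against 642660 in S100. miR-4463 had 0, 21, 3, 3 and 0 counts in S100, P100, P40, total exRNA and lysate, with 17 of the 21 in P100 replicate 2. miR-4284 had 0, 4, 6, 1 and 1 counts in the same groups. A count of 0 in S100 allows up to 4.67 CPM over that group.

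miR-4485-3p and miR-12136 made up 3285 of the 3346 counts of the 5 matching entries, 98.2%. Together the 5 took 0.00890 ± 0.00217% of counts in S100 (SD, n = 3), 1.84 ± 0.345% in P100, 1.13 ± 0.312% in P40 and 0.382 ± 0.181% in total exRNA (SD, n = 4 each), and 0.146 ± 0.0666% in the lysate (SD, n = 3). miR-4485-5p, the other arm of the MIR4485 hairpin, had 2 counts in P100, 1 in P40, 1 in total exRNA and 0 in S100 and the lysate. The whole series thus lists 4 counts of that arm beside 2668 of miR-4485-3p. Neither miR-4485-5p nor miR-4484 (6 counts in P100, 1 in P40, none in the other groups) was among the 5 matching entries. Names without a sequence in the RefSeq table were not searched, so this does not show that their letters differ from mitochondrial transcripts. Of the 57 bases of the MIR4485 hairpin, 53 equal MT-RNR2. miR-4461 was not listed.

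The miRNAs with profiles nearest to each were found from the group means of log2 CPM over the 5 groups, centred on their mean, by the root mean square (RMS) difference to the other 226 tested. Nearest to miR-4485-3p were miR-7704 (RMS 0.874), miR-486-5p (1.23), a miRNA abundant in red blood cells, and miR-3651 (1.56), whose locus overlaps a snoRNA gene. The median over all 226 was 3.03, and miR-12136 came sixth at 1.86. Nearest to miR-12136 were miR-3651 (RMS 0.676), miR-365a-3p (1.10) and miR-10b-5p (1.11), a miRNA encoded in the HOXD cluster, with a median over all of 2.17. From that side miR-4485-3p ranked only 57. The profile of miR-3651 was high in P100, at 12.36 log2 CPM, and low in S100 (7.76). It had 9.69 in total exRNA against 10.42 in the lysate, a difference that was not called. Each nearest profile is flatter than that of miR-4485-3p, which spanned 5.59 in S100 to 13.87 in P100. These are likenesses over 5 group means that share their libraries.

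**Figure D5:**
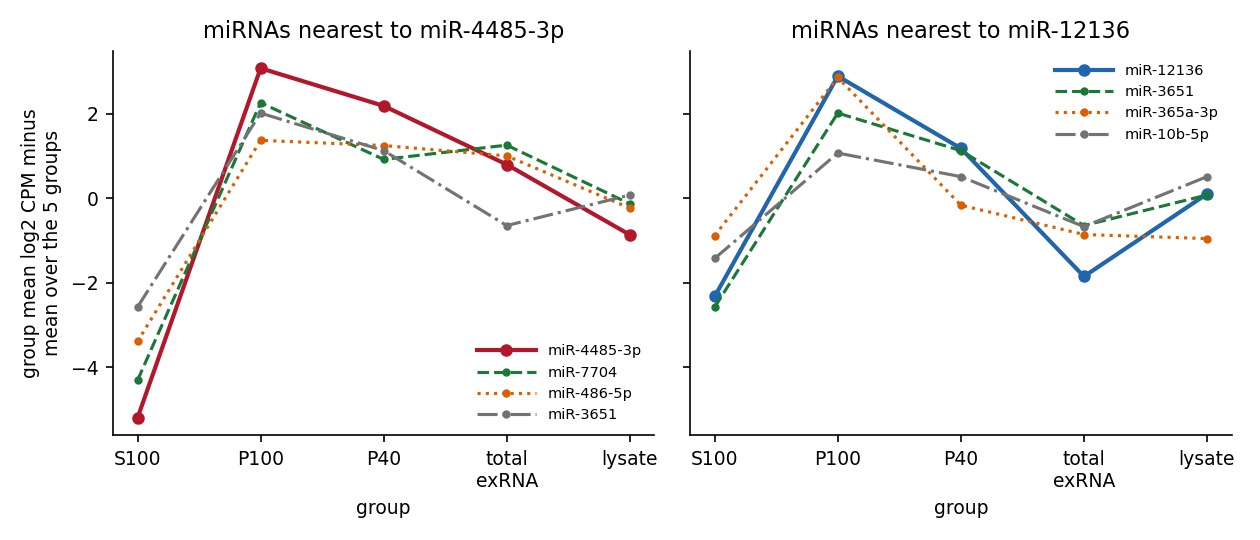
Group mean log2 CPM, centred on the mean of the 5 groups (y axis), of miR-4485-3p (left) and miR-12136 (right) with the 3 tested miRNAs nearest to each. miR-7704 follows miR-4485-3p with an RMS difference of 0.874, and miR-3651 follows miR-12136 with 0.676. From lysate to total exRNA the mean goes from 9.06 to 7.11 log2 CPM for miR-12136. For miR-3651 it goes from 10.42 to 9.69, a difference that was not called.

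Entries that share letters with other structural RNAs were set beside the pair from lists of nuclear rRNA loci (9), snRNA or snoRNA genes (10) and tRNA-like sequences (5). Of these 24, 12 passed the filter, so the counts below are not over all entries. The filter can keep an entry that is high in 1 group alone. The 2 entries with 0 lysate counts thus passed only through groups where they were higher. Of these, miR-5100 was called as a rise in P100 on 4 counts. The nuclear rRNA list as a whole took 0.0258 to 0.0828% of lysate counts. That is too little for any of its 7 tested entries to pass on the lysate libraries alone. The filter therefore favoured rises against the lysate among these 7. The lists were also chosen with earlier results of these data known, so the counts below are a description only. In P100 against lysate, 10 of the 12 rose and 2 fell (edgeR quasi-likelihood, Benjamini-Hochberg adjusted p under 0.05), where 16.7% of all miRNAs rose and 20.7% fell. Their median log2 fold change was 4.55 with 2 entries at 0 in the lysate set to their bound of 3 counts, or 5.60 as fitted, against -0.10 over all tested. The 7 nuclear rRNA entries tested all rose, as did both snRNA or snoRNA entries, miR-1246 and miR-3651. miR-3651 rose by 1.96 ± 0.37 (log2, SE; edgeR adjusted p = 0.000243). The 2 that fell were tRNA-like, miR-4454 and miR-1260b, similar in sequence to cytosolic tRNAs, and miR-1260b fell by 3.81 ± 0.88 (edgeR adjusted p = 0.0017).

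In total exRNA against lysate, 9 of the 12 rose and none fell, where 18.9% of all miRNAs rose and 16.3% fell. Over all miRNAs the split of 43 higher and 37 lower was 47 and 19 with library size only and 45 and 23 with RLE size factors, and under both the 12 entries gave 9 higher and none lower. The median was 4.41 against 0.01 over all. In that comparison miR-12136 had -1.83, and miR-3651 had a log2 fold change of -0.69 ± 0.36 that did not pass (edgeR adjusted p = 0.140). The other entries not called, both tRNA-like, had -0.99 ± 0.52 and -0.93 ± 0.57 (edgeR adjusted p = 0.155 and 0.234). In S100 against P100, 10 fell and none rose, where 31.3% of all fell and 28.6% rose, with a median of -3.04 against -0.01 over all. miR-10396a-3p, of a nuclear rRNA locus, had the largest fall, a log2 fold change of -5.35 ± 0.60. In P100 against P40, 4 of the 12 rose, all of nuclear rRNA loci, and none fell, where 2.20% of all rose and 2.64% fell, with a median of 0.94 against -0.18. With library size only, 4 rose and 1 fell, and over all miRNAs the split of 5 higher and 6 lower was 5 and 16, or 5 and 4 with RLE size factors. The count of 4 was 2 without P100 replicate 3, without P100 replicate 4, without P40 replicate 2 or with no low-count filter.

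For P40 against lysate, 9 rose and 2 fell, where 13.7% of all rose and 13.2% fell, with a median of 3.93 at the bound against 0.06 over all. Over all miRNAs the split of 31 higher and 30 lower was 47 and 19 with library size only, while the 12 entries again gave 9 and 2. In S100 against lysate 7 rose and 3 fell, where 32.2% of all rose and 30.0% fell, with a median of 2.23 against -0.04. The rises were 6 of the 7 nuclear rRNA entries and 1 of the 2 snRNA or snoRNA entries. Of the 3 tRNA-like entries 2 fell and 0 rose, and miR-3651 fell at -2.80 ± 0.40. In this comparison miR-4485-3p had -5.68 and miR-12136 -2.85. P100 against total exRNA gave 4 up and 4 down (13.2% and 14.5% of all), with a median of 0.12 against -0.02. P40 against total exRNA gave 2 up and 5 down (5.73% and 5.73% of all), with a median of -1.54 against 0.11, and over all miRNAs the split of 13 higher and 13 lower was 10 and 17 with RLE size factors. In S100 against total exRNA 1 rose and 11 fell (29.5% and 33.9% of all), with a median of -2.64 against -0.34, and in S100 against P40 none rose and 6 fell (25.1% and 27.8% of all), with a median of -1.47 against -0.30. The near-identical miR-663a and miR-663b, and the miR-10396a and miR-10396b pairs, may have exchanged reads.

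The share of blood cell marker miRNAs was higher in the pellets than in S100 and the lysate. It rested mainly on miR-451a and on miR-486-5p, which is also among the profiles nearest to miR-4485-3p. In S100, P100, P40, total exRNA and lysate, miR-486-5p had 17, 119, 119, 243 and 105 counts. In the same order miR-451a had 38, 46, 71, 50 and 0, and each of the rest had at most 26 counts in any group. The list of 7 took 0.00799 to 0.0151% of counts in S100, 0.140 to 0.283% in P100, 0.273 to 0.343% in P40, 0.0900 to 0.232% in total exRNA and 0.0401 to 0.0439% in the lysate, with 5, 5, 5, 6 and 4 of the 7 detected. In the lysate miR-451a, miR-144-3p and miR-223-3p were at 0, in P100 and P40 miR-142-3p and miR-142-5p, in S100 miR-150-5p and miR-142-5p, and in total exRNA miR-142-5p. Their part in the levels of miR-4485-3p and miR-12136 was not tested. The liver marker miR-122-5p was detected in every group, at 0.0104 to 0.0833% of counts.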

How the data were processed

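Per the labels' protocols, the RealSeq-AC chemistry gave small RNA libraries sequenced from one end over 50 bases. The tools named are cutadapt 1.16 (adapter removal), FastQC (read quality) and Bowtie2 (alignment), and the build is GRCh38, per the submitters' processing notes. How reads that match several places were counted, and under which filter and miRNA release, is not given in the sources used here. A miR-4485-3p or miR-12136 value could move with these, since the letters have several sources. Each deposited file lists the authors' unnormalized counts by mature miRNA, and a name missing from a file was taken as 0. No molecular identifiers were named, so intervals and floors cover counting error only.

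The members and lists were chosen with earlier results of these data known. Libraries with fewer than 100 listed miRNAs were left out (S100 replicate 1). The model was fitted with edgeR 4.0.16 under R 4.3.3 (filterByExpr with a minimum count of 10 and total of 15, TMM, robust quasi-likelihood, group as the only term, Benjamini-Hochberg over 227 miRNAs, threshold 0.05). Those tested hold 98.5 to 99.1% of each library, and the common biological coefficient of variation was 0.419. Named beside the pair were listed entries of the mitochondrial lists, the 3 nearest profiles of each, and at most the called entry with the largest rise and fall of the other RNA classes per comparison. miR-4454, miR-1246, miR-5100, the miR-663 and miR-10396 entries named as near-identical and the marker miRNAs were named outside that rule. Mature sequences came from RefSeq, and transcripts and coordinates from GENCODE v29.

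The batch label equals the replicate number, so numbers pair libraries by label. Deviations from group means correlated by -0.030 on average between same-numbered libraries of other groups (32 pairs) and by 0.0099 between other numbers (97 pairs). Alternatives were RLE size factors, library size only, no low-count filter, DESeq2 1.42.0, the replicate block and leaving out each library in turn.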

Additional observations from a re-analysis of the deposited data

How the results depend on the processing

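Over both entries and all 10 comparisons, 258 alternative fold changes were computed. None changed sign. Of them, 244 differed from the value reported by less than the larger of the 2 groups' SDs of log2 CPM between libraries, and 14 did not. That SD is wide for miR-4485-3p against the lysate, at 1.19. A move from 3.70 to 4.85 in P100 without lysate replicate 1 lies within it. miR-12136 in S100 against lysate (-2.85) was -2.45 with RLE size factors, -2.19 with no low-count filter and -2.47 with DESeq2, and -3.06 to -2.30 with libraries left out. With no low-count filter, S100 against P100 was -8.75 for miR-4485-3p and -5.12 for miR-12136, S100 against lysate was -4.92 for miR-4485-3p, and S100 against P40 was -8.01 for miR-4485-3p and -3.59 for miR-12136. With 1 library left out, miR-4485-3p ranged from -6.32 to -4.32 in S100 against lysate and from -10.2 to -8.73 in S100 against P100. Total exRNA against lysate ranged from 1.17 to 2.80 for miR-4485-3p and from -2.83 to -1.52 for miR-12136, with 2.80 and -2.83 without both total exRNA replicate 2 and lysate replicate 1, a setting added after seeing the data. The cause of these shifts was not tested.

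Over all miRNAs, P40 against total exRNA gave 26 calls, against 17 with no low-count filter, 42 with DESeq2, 53 without total exRNA replicate 2 and lysate replicate 1, and 17 to 42 with 1 library left out, of which total exRNA replicate 2 gave the 42. P100 against P40 gave 11 calls, against 21 with library size only, 17 with DESeq2 and 3 to 12 with 1 library left out. With the replicate block, miR-4485-3p in S100 against lysate was -5.08 in place of -5.68, and the block changed no call count by more than 1.5 times. The median of all miRNAs shifted by -0.108 to 0.428 with RLE size factors, by -0.206 to 0.335 with library size only and by -0.187 to 0.704 with no low-count filter. miR-4485-3p had 13 counts in S100 and miR-12136 had 32 in total exRNA, which limits the precision of their folds there.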

Other observations

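S100 replicate 1, which entered no comparison, had 0 counts of miR-4485-3p and of miR-12136. Its total was 48 counts, so 3 counts stand for 62500 CPM there, and neither level seen in the other groups would have been detectable at this depth.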
